A study of Mus musculus with 16 samples.

Results

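Peaks of the transcription factors Bcl11a and Spi1 were examined at the 4 genes of the core-binding factor in mouse progenitor cells: Runx1, Runx2 and Runx3, which encode the DNA-binding subunits, and Cbfb, which encodes their shared partner. The 4 genes were given by name and chosen from 21883 protein-coding genes. Each locus was taken from 10 kb before the gene to 10 kb after it, on the mm10 build. Overlapping peaks of all libraries were merged into 34234 regions, of which 34 lay at the 4 loci: 13 at Runx1, 11 at Runx2, 6 at Runx3 and 4 at Cbfb. These regions held 168 of the 130097 peaks on assembled chromosomes. The cells were MPP3, a multipotent progenitor population biased to the myeloid lineages, sorted from mouse bone marrow. Each of the 16 CUT&Tag libraries was deposited as a peak list. In CUT&Tag an antibody brings a transposase to the bound factor, so that nearby DNA is cut and tagged. Bcl11a, a zinc finger repressor, was profiled in WT-iMOS cells only, with 3 T1 and 3 T2 libraries. Spi1 (PU.1), an ETS factor needed for myeloid and lymphoid cells, was profiled in both genotypes, with 3 T1 and 3 T2 libraries from WT-iMOS and 2 T1 and 2 T2 from KO-iMOS. All samples carry 3m in their titles. What iMOS, T1, T2 and 3m stand for, which gene KO refers to, and whether replicates came from separate animals are not given in the sources used here. The p-values therefore measure the spread between these libraries, which may be technical.

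Several properties of the lists bear on every count that follows. The lists held 2719 to 20241 peaks, without read counts, so depth is unknown and an uncalled peak does not show that a factor was absent. In KO-iMOS the lists on assembled chromosomes held 6337 to 20177 peaks, against 4926 to 12126 for Spi1 in WT-iMOS and 2605 to 7270 for Bcl11a. The median peak width was 444 to 493 bp in KO-iMOS lists and 338 to 399 bp in the Spi1 WT-iMOS lists, with no overlap. Names of peaks start with PWT in both T1 lists of KO-iMOS, and with PKO in both T2 lists. The labels do not explain these prefixes. Groups follow the labels, and the main KO-iMOS results are also given without either pair. The label MPP3 was set against marker genes, bearing in mind that a peak at a locus does not measure expression. Spi1 had a peak in at least 2 WT-iMOS libraries at 7 of 8 progenitor markers, and Bcl11a at 4 of 8, against 33.5% and 25.4% of all 21883 genes. For Spi1 the counts were 1 of 3 T cell markers found, 2 of 4 B cell, 1 of 4 erythroid and 1 of 4 stromal and endothelial markers, and for Bcl11a they were 1, 1, 2 and 1.

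RUNX proteins bind DNA through their Runt domain. CBFB does not touch DNA itself but joins the Runt domain, raises its affinity for DNA and protects the RUNX protein from degradation. Runx1 is required for the emergence of blood stem cells and for normal megakaryocyte and lymphoid output, Runx2 for bone formation, and Runx3 for cytotoxic T cells and sensory neurons. Each RUNX gene is read from a distal promoter, P1, and a proximal promoter, P2. At Runx1 an enhancer about 23 kb downstream of the P1 start, known as +23 or eR1, is active in emerging and adult blood stem cells. Spi1 and Runx1 are known to bind many of the same myeloid enhancers, and Runx1 activates the Spi1 gene.

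The distal promoters of the 3 RUNX genes shared 1 run of 18 bases that contains the RUNX binding letters ACCACA in 2 copies. It is shown because the same letters carried peaks at some of the genes and not at others. The sequences are RefSeq's on GRCm38.p6, which is mm10 under another name, and all 4 genes matched the promoter table. Each is printed on the strand of its gene, 5′ to 3′, with the shared run in capitals.
Runx1 P1, chr16:92826025-92826054, minus strand: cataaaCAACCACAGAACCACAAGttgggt
Runx2 first promoter, chr17:44814583-44814612, minus strand: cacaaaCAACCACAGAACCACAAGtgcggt
Runx3 P1, chr4:135120503-135120532, plus strand: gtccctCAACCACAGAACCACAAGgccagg
The run lay 27 to 44 bases after the Runx1 start, 22 to 39 bases after the Runx2 start and before the Runx3 start, at −136 to −119. It was found, on either strand, in 4 of 32851 promoter windows of 300 bases (0.0122%), the other being that of Gm16225, a long non-coding RNA gene next to Runx3. At Runx1 it was covered by a peak in 3 of 6 Bcl11a, 3 of 6 Spi1 WT-iMOS and 3 of 4 Spi1 KO-iMOS libraries. At Runx3 the counts were 4 of 6, 1 of 6 and 3 of 4. At Runx2, with the same 18 bases, no library had a peak over them.

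The promoters also differed in base composition. In the 300 bases around each start, GC content was 45% at Runx1 P1 and 45.3% at Runx2, with 2 CpG each. It was 69% at Runx1 P2 (35 CpG), 69.7% at Cbfb (30 CpG), 63.7% at Runx3 P1 (8 CpG) and 77.3% at Runx3 P2 (45 CpG). The 250 bases before the starts of both Runx1 promoters and of Cbfb are printed, since all of these carried peaks of at least 1 factor. Capitals mark the ETS letters GGAAGT.
Runx1 P1, chr16:92826075-92826324, minus strand: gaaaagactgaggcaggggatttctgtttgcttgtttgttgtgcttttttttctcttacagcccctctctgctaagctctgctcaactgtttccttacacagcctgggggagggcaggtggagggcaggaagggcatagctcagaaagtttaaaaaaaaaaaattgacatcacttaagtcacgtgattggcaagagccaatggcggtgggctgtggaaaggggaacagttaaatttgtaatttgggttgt
Runx1 P2, chr16:92697330-92697579, minus strand: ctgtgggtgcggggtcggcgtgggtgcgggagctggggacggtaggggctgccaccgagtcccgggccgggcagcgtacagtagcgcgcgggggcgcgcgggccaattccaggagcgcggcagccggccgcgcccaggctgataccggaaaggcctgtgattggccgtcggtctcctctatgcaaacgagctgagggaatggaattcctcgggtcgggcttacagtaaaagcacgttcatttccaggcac
Cbfb, chr8:105170424-105170673, plus strand: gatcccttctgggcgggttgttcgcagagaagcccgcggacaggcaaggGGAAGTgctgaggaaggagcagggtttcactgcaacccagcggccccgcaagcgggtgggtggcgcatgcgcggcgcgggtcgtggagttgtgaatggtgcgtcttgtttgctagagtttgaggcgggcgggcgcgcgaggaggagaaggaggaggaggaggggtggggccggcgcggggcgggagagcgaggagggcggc
Searched on both strands, GGAAGT was found at Cbfb and at neither Runx1 promoter, and in 23.8% of all promoter windows. RUNX letters (ACCACA) were found in 16.8% of windows, among them the 2 copies each at Runx1 P1 and Runx3 P1 and 3 copies at Runx2. The letters TGACCA, known for Bcl11a, were found in none of the 6 promoter windows of the 4 genes and in 13.6% of all windows. These matches are descriptions of the letters only. The other GGAAGT at Cbfb lies just after the start and is shown here in capitals.
Cbfb, chr8:105170666-105170695, plus strand: agggcggcgagaGGAAGTggcggccgcagc

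Runx1 (gene ID 12394, chr16:92601466-92826074, minus strand) held the most peaks of the 4 loci, 71, with at least 1 in each of the 16 libraries. Of its 13 regions 10 were found in at least 2 libraries. Per 100 kb of locus it had 5.31 regions, against 3.25 at Runx2, 7.76 at Runx3 and 5.94 at Cbfb. All 13 touched the gene body, and exons and introns were not told apart here. In the direction of transcription, the P1 promoter region (chr16:92825742-92826446) had a peak in 3 of 6 Bcl11a, 3 of 6 Spi1 WT-iMOS and 3 of 4 Spi1 KO-iMOS libraries. The P2 promoter, 128.745 kb downstream (chr16:92696917-92698060), had peaks in 3, 1 and 3 libraries of the same groups. The region of the +23 enhancer (chr16:92800796-92802151) had 3, 6 and 4. It was the region of the locus with the most libraries, 13 of 16.

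**Figure D1:**
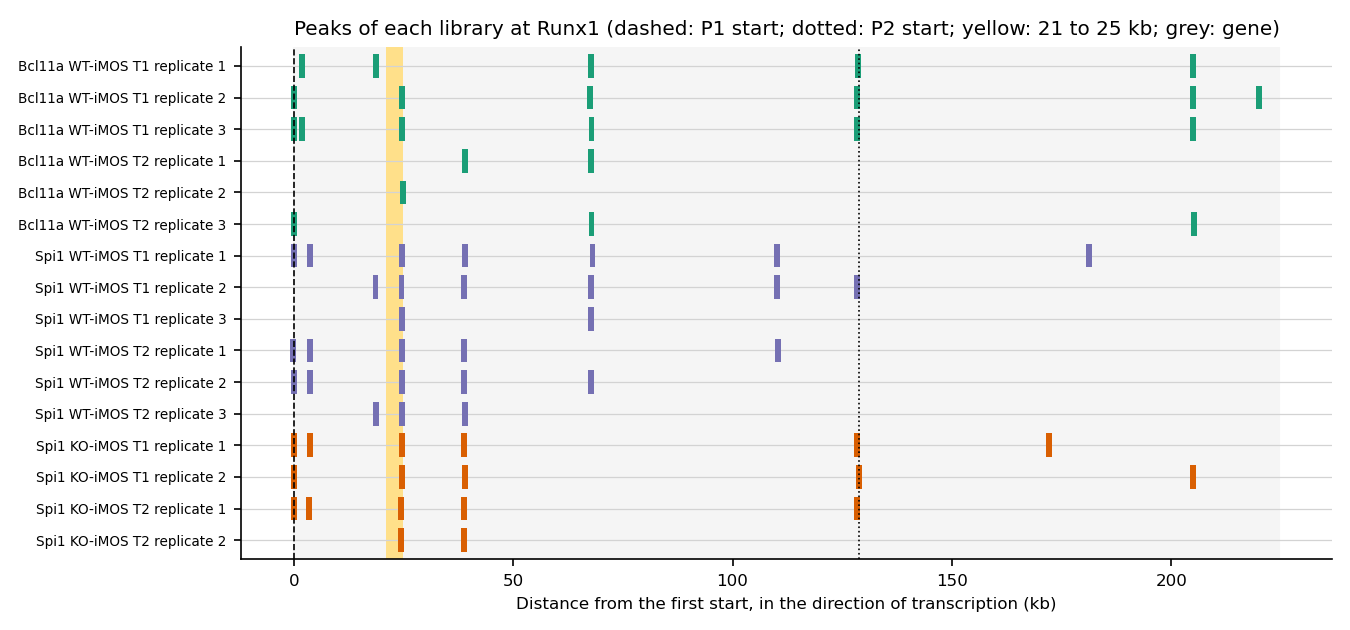
Peaks of each of the 16 libraries (rows) at Runx1, by distance from the P1 start in kb along the direction of transcription; marks are widened to be visible. Spi1 was called near 24 kb in all 10 of its libraries. Near 68 kb marks are seen in WT-iMOS libraries of both factors and in 0 of 4 KO-iMOS libraries, all of them Spi1.

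The other Runx1 regions are given with the libraries in which each was called. Bcl11a was profiled in WT-iMOS alone, and the share of regions called for 1 factor or 1 genotype over all regions was not computed. A region 38.5 to 39.3 kb from the P1 start (chr16:92786824-92787604) was called for Spi1 in 5 of 6 WT-iMOS and 4 of 4 KO-iMOS libraries and for Bcl11a in 1 of 6. A region 204.6 to 205.3 kb from the start (chr16:92620814-92621473), far downstream of P2, was called for Bcl11a in 4 of 6 libraries, all 3 T1 libraries among them, and for Spi1 in 0 of 6 WT-iMOS and 1 of 4 KO-iMOS libraries. A region at 67.4 to 68.2 kb (chr16:92757828-92758679), between the promoters, was called for Bcl11a in 5 of 6, for Spi1 in WT-iMOS in 4 of 6 and in KO-iMOS in 0 of 4 libraries. Its Bcl11a peaks ranked at the 8.22 to 74.4 percentile of their lists by the deposited −log10 p, and its Spi1 peaks at 1.66 to 33.2, so the Spi1 peaks there were weak for their lists. A region near 110 kb (chr16:92715385-92716120) was called for Spi1 in 3 of 6 WT-iMOS libraries and in no other library. A region 3.3 to 4.1 kb from P1 (chr16:92822011-92822793) had Spi1 in 3 of 6 and 2 of 4 libraries, and Bcl11a in 0 of 6. The next one, 1.7 to 2.0 kb from P1 (chr16:92824081-92824386), had Bcl11a in 2 T1 libraries only. At 18.5 to 19.0 kb (chr16:92807103-92807570) Bcl11a was called in 1 and Spi1 in 2 WT-iMOS libraries. The last 3 regions were called in 1 library each: a Bcl11a region near 220 kb, a Spi1 WT-iMOS region near 181 kb and a Spi1 KO-iMOS region near 172 kb.

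Within the +23 region the summit of the strongest Spi1 peak of each library was compared, and these did not overlap between the 2 genotypes. Spi1 WT-iMOS T1 replicate 3 and T2 replicate 3 had 2 peaks each in the region. Counting every peak, summits ran from 24.064 to 24.971 kb in WT-iMOS and from 24.179 to 24.186 kb in KO-iMOS, which overlap. The positions that follow are those of the strongest peaks. In KO-iMOS the summits stood 24183 and 24179 bp (T1) and 24180 and 24186 bp (T2) downstream of the P1 start. In WT-iMOS they stood at 24967, 24971 and 24420 bp (T1) and at 24968, 24968 and 24968 bp (T2). The strongest KO-iMOS summits thus nearly coincided, and 5 of the 6 strongest WT-iMOS summits nearly coincided at another position in the same region. The mean was 24182 ± 3.16 bp (SD, n = 4) in KO-iMOS and 24877 ± 224 bp (n = 6) in WT-iMOS, a shift of −695 bp (exact two-sided permutation p = 0.00476, the smallest possible over 210 relabellings). The spans of all 10 libraries overlapped, where 2 peaks of the same library were joined into 1 span. Bcl11a summits in the region stood at 24967 bp and 24187 bp (T1 replicates 2 and 3) and 25115 bp (T2 replicate 2), and so at both Spi1 positions and beyond.

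**Figure D2:**
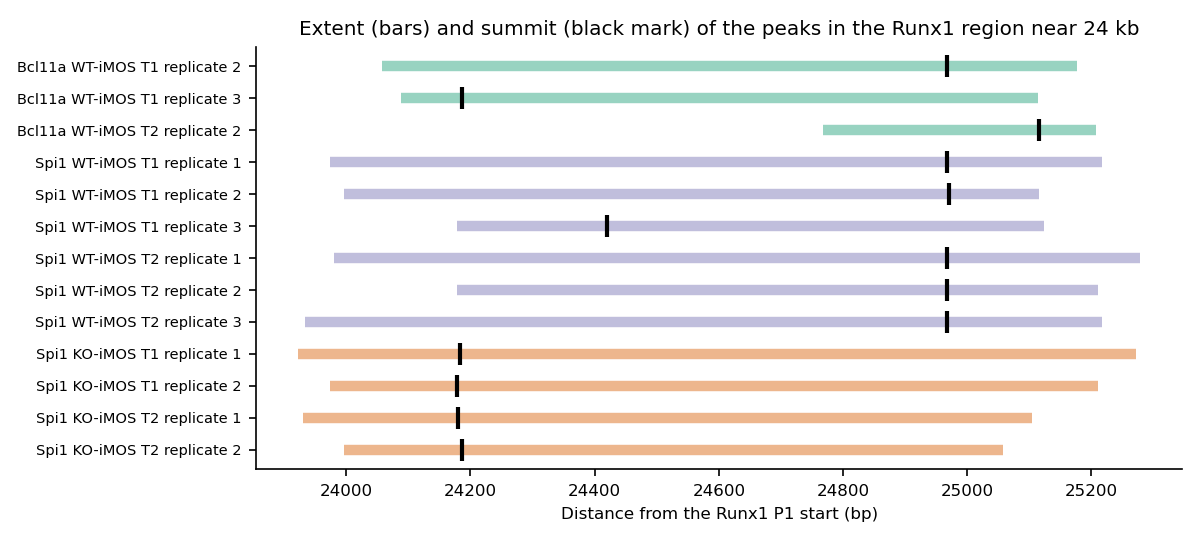
Joined span of the peaks (bars) and summit of the strongest peak (black marks) of each library in the Runx1 region near 24 kb. The 13 libraries with a peak are shown, in bp from the P1 start. The 4 KO-iMOS marks stand at 24179 to 24186 bp and the Spi1 WT-iMOS marks at 24420 to 24971 bp. Spi1 WT-iMOS T1 replicate 3 and T2 replicate 3 had 2 peaks each, and their weaker peaks have no mark.

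This summit comparison was added after the positions had been seen. It was run on all 1495 regions with a peak in all 10 Spi1 libraries, and none passed Benjamini-Hochberg adjustment (0 called, 0%, with 185 at an unadjusted exact permutation p under 0.05). The adjusted permutation p at Runx1 was 0.148. Groups of summits did not overlap in 3.61% of these regions, and the medians lay more than 500 bp apart in 10 of them (0.669%), with a shift of −786.5 bp at Runx1 and a median shift of 29.5 bp over all. Without the 2 KO-iMOS T1 libraries the mean shift was −694 bp, and without the 2 T2 libraries −696 bp (exact permutation p = 0.0357 each). Both are the smallest possible p for those libraries, since the summits stayed apart, so they add no further support. With lists shortened to equal length only 1 KO-iMOS peak remained in the region, so 1 library was compared with 5 (shift −789 bp). Peaks were wider in KO-iMOS, as given above, and the part of width in the position of a summit was not tested. The strongest region of the 4 loci, downstream of Runx3, was the other one with Spi1 in all 10 libraries: its mean summit shift was −12 bp (exact permutation p = 0.643, adjusted 0.881).

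The question of the genotype comparison is how Spi1 occupancy of these genes compares in KO-iMOS and WT-iMOS. At Runx1 the number of Spi1 peaks per 10000 listed peaks was 2.97 and 3.85 (T1) and 3.38 and 3.16 (T2) in KO-iMOS. In WT-iMOS it was 6.54, 8.59 and 4.51 (T1) and 4.12, 7.43 and 8.12 (T2). All 4 KO-iMOS libraries were below all 6 WT-iMOS libraries, at 3.34 ± 0.379 (SD, n = 4) against 6.55 ± 1.87 (n = 6), a ratio of 0.510 (exact two-sided permutation p = 0.00952). After adjustment over 12052 genes the permutation p was 0.145, and 0 genes were called (0%, with 2715 at an unadjusted p under 0.05). An unadjusted p under 0.05 with lower values in KO-iMOS was found for 5.26% of genes, and groups apart in that direction for 2.85%. This difference rests on the scaling by list length. The number of peaks itself was 6, 5, 5 and 2 in KO-iMOS and 7, 6, 3, 5, 5 and 4 in WT-iMOS, which overlap (difference in means −0.50, exact permutation p = 0.686), and with lists of equal length it was −0.96 per 10000 (permutation p = 0.676). Without the 2 KO-iMOS T1 libraries it was −3.29 and without the 2 T2 libraries −3.14 (exact permutation p = 0.0714 each). Within T1 and within T2 it was −3.14 and −3.29, where 2 libraries against 3 cannot go below an exact p of 0.1.

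By region, Spi1 at Runx1 had 5 regions called in both genotypes, 4 called in WT-iMOS and not in KO-iMOS, and 2 called in KO-iMOS and not in WT-iMOS. Over all regions of the genome, 39.6% of those with a Spi1 peak in WT-iMOS had none in KO-iMOS, and 54.1% of those with one in KO-iMOS had none in WT-iMOS. At Runx1 this was 4 of 9 and 2 of 7. The regions at 67.4 to 68.2 kb (0 of 4 against 4 of 6, Fisher's exact p = 0.0762, adjusted 0.313) and near 110 kb (0 of 4 against 3 of 6, exact p = 0.2, adjusted 0.377) were those lower by at least 0.5 in share of libraries. For the first of these, with a −log10 q of at least 5 the counts were 0 of 4 against 1 of 6, and with lists of equal length Spi1 was called there in 0 libraries of either genotype, while Bcl11a remained in 3 of 6 under both. The P2 promoter was the one higher by as much (3 of 4 against 1 of 6, exact p = 0.190, adjusted 0.377). There the counts were 1 of 4 against 0 of 6 with a −log10 q of at least 5. With lists of equal length Spi1 was called at P2 in 0 libraries of either genotype. Peaks in the region at 38.5 to 39.3 kb ranked higher in the KO-iMOS lists (47.8 to 90.6 percentile) than in most WT-iMOS lists (1.26 to 67.6), with overlap. Those at P1 ranked at 66.9 to 71.5 in KO-iMOS and 31.5 to 38.5 in WT-iMOS, with 3 libraries each. Percentiles come from lists of different length, so they can show neither a change in binding nor its absence. The share of regions with ranks apart was not computed. Between the factors in WT-iMOS, Runx1 had 8.03 ± 3.31 Bcl11a and 6.55 ± 1.87 Spi1 peaks per 10000 (n = 6 each), with overlapping groups (difference 1.48, exact permutation p = 0.359, adjusted 0.673). The difference was 3.84 per 10000 with lists of equal length, and turned to −1.17 peaks with no scaling.

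Runx2 (gene ID 12393, chr17:44495987-44814797, minus strand) had the lowest ratio of Bcl11a to Spi1 peaks of the 4 loci. It held 39 peaks in 11 regions, 7 of them in at least 2 libraries, all inside the gene. The reference gives 1 promoter, which had no peak in any library. Spi1 was called at the locus in 6 of 6 WT-iMOS and 4 of 4 KO-iMOS libraries. Bcl11a was called in 3 of 3 T1 libraries and in 0 of 3 T2 libraries. Bcl11a peaks per 10000 were 2.41, 1.71 and 2.75 in T1 and 0 in each T2 library. The Bcl11a T2 lists were also shorter, at 2605 to 4634 peaks against 4150 to 7270 in T1. With all lists shortened to their 2605 strongest peaks, Bcl11a was called at Runx2 in 0 of 3 T1 and 0 of 3 T2 libraries, so the contrast between T1 and T2 was not seen at equal length. For Spi1 in WT-iMOS the values were 2.80, 2.86 and 1.504 (T1) and 3.30, 2.97 and 2.03 (T2). The mean was 1.15 ± 1.30 for Bcl11a and 2.58 ± 0.672 for Spi1 (n = 6 each), a ratio of 0.444 (exact permutation p = 0.0476, adjusted 0.235), with overlapping groups. An unadjusted p under 0.05 with a lower Bcl11a value was found for 13.4% of genes.

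Most Runx2 regions were called for Spi1 alone. Spi1 has 10 libraries against 6 for Bcl11a, and the share of such regions over all regions was not computed. Of the 11 regions 9 were called for Spi1 alone and 6 of those in KO-iMOS alone. These were 6 of the 10 regions with Spi1 in KO-iMOS, beside the 54.1% over all regions given above. Regions at 159.5 to 160.2 kb (chr17:44654408-44655137) and 141.3 to 142.3 kb from the start (chr17:44672373-44673363) had Spi1 in 4 and 3 of 6 WT-iMOS and in 3 and 3 of 4 KO-iMOS libraries, and Bcl11a in none. A region at 37.0 to 37.8 kb (chr17:44776786-44777657) had Spi1 in 4 of 6 and 4 of 4 libraries and Bcl11a in 1. It lies in a stretch that also belongs to Supt3, which encodes a subunit of the SAGA coactivator complex, and the peak cannot be assigned to either gene. The region with the most Bcl11a libraries, at 86.1 to 86.5 kb (chr17:44728116-44728481), had all 3 Bcl11a T1 libraries, 1 Spi1 WT-iMOS T1 library and no T2 library (stratified exact permutation p = 0.05, adjusted 1). Nearest to the start, a region at 1.6 to 2.1 kb (chr17:44812577-44813002), also within Supt3, had Spi1 in 3 of 4 libraries from KO-iMOS and in 0 of 6 from WT-iMOS (Fisher's exact p = 0.0333, adjusted 0.232). That at 30.9 to 31.6 kb (chr17:44783076-44783708) had 3 of 4 against 1 of 6. KO-iMOS peaks per 10000 were 3.96, 3.85, 5.40 and 1.58, a mean of 3.70 ± 1.58 (n = 4) against 2.58 ± 0.672 in WT-iMOS (exact permutation p = 0.167, adjusted 0.342). The library with 1.58, T2 replicate 2, has the shortest KO-iMOS list, and it had a Runx2 peak in the region at 37.0 to 37.8 kb alone.

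Runx3 (gene ID 12399, chr4:135120645-135177990, plus strand) carried the strongest Spi1 peaks of the 4 loci. It held 37 peaks in 6 regions, all found in at least 2 libraries, and had a peak in 14 of 16 libraries. The strongest region lay 3680 bp beyond the end of the gene (chr4:135181670-135182648) and was called for Spi1 in 6 of 6 WT-iMOS and 4 of 4 KO-iMOS libraries. By the deposited −log10 p its Spi1 peaks ranked at the 87.6 to 97.4 percentile of the WT-iMOS lists and at 96.2 to 99.5 in KO-iMOS. The deposited fold enrichment over the caller's background was 7.84 to 11.8 and 9.17 to 13.8. Bcl11a was called there in 2 T1 libraries, at the 36.8 and 51.5 percentile. A second Spi1 region, 7.9 to 8.8 kb into the gene (chr4:135128590-135129454), was called in 5 of 6 WT-iMOS and 4 of 4 KO-iMOS libraries and for Bcl11a in 0 of 6 (Bcl11a against Spi1 in WT-iMOS, Fisher's exact p = 0.0152, adjusted 0.142). Its 9 summits stood at 8359 bp or 8364 bp from the P1 start.

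Bcl11a at Runx3 was called in 4 of 6 libraries, at both promoters and in the region beyond the gene end. The share of Bcl11a peaks at promoters over all genes was not computed. The region at P1 (chr4:135119871-135120628), which ends 17 bp before the start and overlaps Gm16225, had Bcl11a in 4 of 6 libraries, Spi1 in 1 of 6 WT-iMOS and in 3 of 4 KO-iMOS libraries. At P2, 31.9 kb downstream (chr4:135152080-135152502), Bcl11a was called in 2 of 6 libraries and Spi1 in none. Just beyond P2, regions at 32.9 to 33.3 kb (chr4:135153588-135153989) and 39.2 to 39.9 kb (chr4:135159871-135160587) each had Spi1 in 1 WT-iMOS library, T2 replicate 1, and in both KO-iMOS T1 libraries. That WT-iMOS library has the longest Spi1 list of its genotype. Spi1 peaks per 10000 were 2.81 ± 0.811 in WT-iMOS (n = 6, from 1.87 to 4.12, median 2.92) and 2.48, 3.85, 2.03 and 3.16 in KO-iMOS (mean 2.88 ± 0.798, n = 4, exact permutation p = 0.919, adjusted 0.985). For Bcl11a they were 2.503 ± 1.99 (n = 6), with 0 in T1 replicate 1 and T2 replicate 2 and 3.16 to 4.32 in the other 4 libraries (exact permutation p = 0.695 against Spi1, adjusted 0.902).

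Cbfb (gene ID 12400, chr8:105170674-105217989, plus strand) showed a Spi1 promoter region without Bcl11a. It also had an intragenic region of both factors in WT-iMOS, where Spi1 was not called in KO-iMOS. Bcl11a was not profiled in KO-iMOS. Of the 2 Cbfb regions with Spi1 in WT-iMOS, 1 had none in KO-iMOS, beside 39.6% over all regions. It held 21 peaks in 4 regions. The promoter region (chr8:105170162-105170805) was called for Spi1 in 3 of 6 WT-iMOS and 4 of 4 KO-iMOS libraries and for Bcl11a in 0 of 6. Relative to the start, the 3 WT-iMOS summits stood at −179 to −172 bp, and the KO-iMOS summits at −178 and −179 bp (T1) and −263 and −243 bp (T2). The GGAAGT letters printed above occupy −201 to −196, and all 7 of these peaks covered them. The copy 5 to 10 bases after the start was covered in 2 WT-iMOS and 3 KO-iMOS libraries.

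The intragenic Cbfb region (chr8:105212114-105212843), 41.4 to 42.2 kb from the start, was called for Bcl11a in 4 of 6 libraries, for Spi1 in 5 of 6 WT-iMOS libraries and in 0 of 4 KO-iMOS libraries. The genotypes differed with a Fisher's exact p of 0.0476 (adjusted 0.247). Its Bcl11a peaks ranked at the 32.4 to 89.8 percentile and its Spi1 peaks at 25.5 to 81.2, so it was not confined to the weakest peaks. With lists of equal length, Bcl11a remained in 3 of 6 and Spi1 in 1 of 6 WT-iMOS libraries. The genotype difference in share of libraries with Spi1 went from −0.83 to −0.17. Shortening a list can only remove peaks, so the 0 of 4 in KO-iMOS could not change. A region 6748 bp beyond the gene (chr8:105224737-105225375), at the neighbouring gene D230025D16Rik, showed the opposite: KO-iMOS had Spi1 in 3 of 4 libraries and WT-iMOS in 0 of 6 (Fisher's exact p = 0.0333, adjusted 0.232), and Bcl11a in 1 of 6. The fourth region, 1.1 to 1.6 kb from the start (chr8:105171768-105172247), had 1 KO-iMOS library. Over the whole locus the genotypes overlapped. Spi1 peaks per 10000 were 1.66 ± 0.240 in WT-iMOS (n = 6) and 1.49, 1.54, 0.675 and 3.16 in KO-iMOS (mean 1.71 ± 1.04, n = 4, exact permutation p = 0.910, adjusted 0.979). Bcl11a stood at 2.41, 1.71 and 2.75 in T1 and at 2.16, 0 and 0 in T2.

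**Figure D3:**
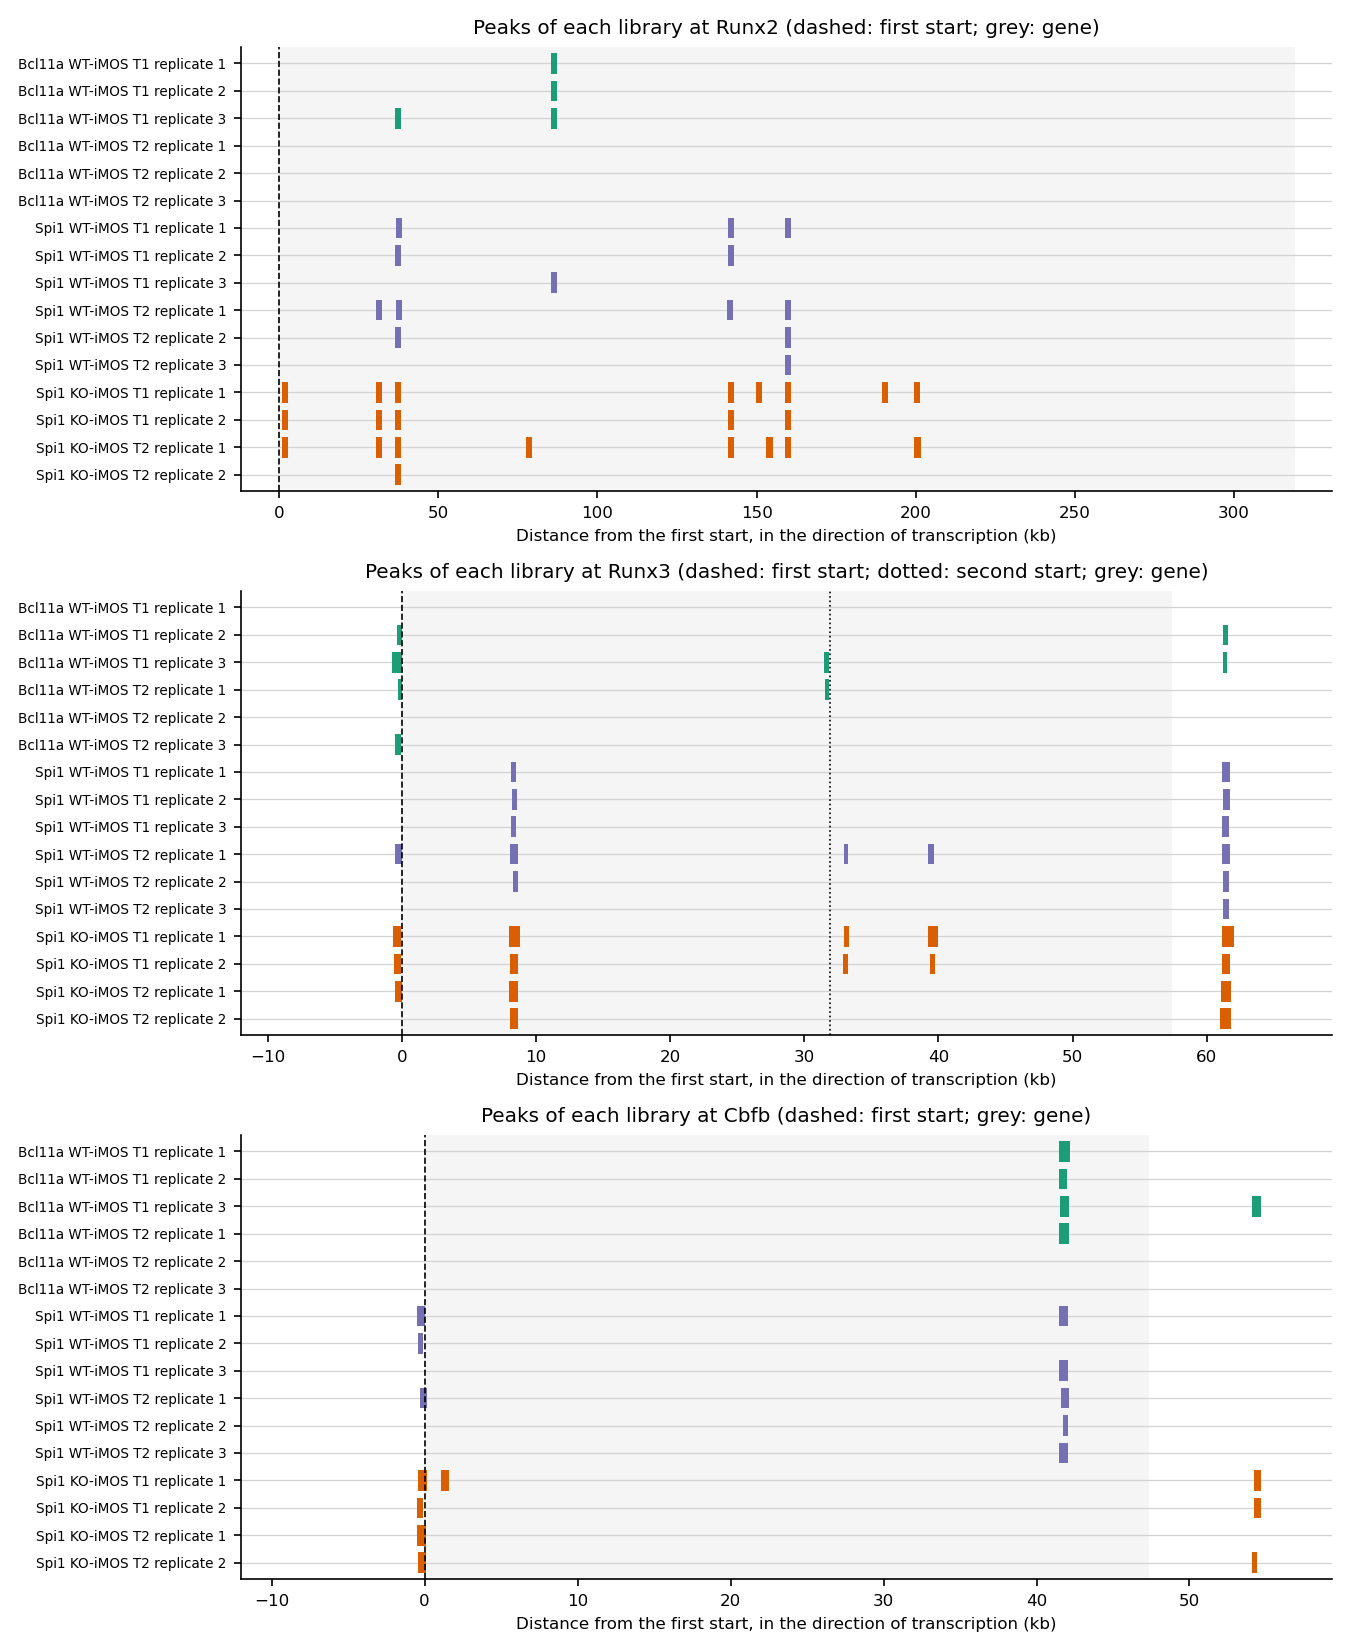
Peaks of each of the 16 libraries (rows) at Runx2, Runx3 and Cbfb, by distance in kb from the first start along the direction of transcription; narrow peaks are widened to be visible. Bcl11a T2 libraries have no mark at Runx2, and all 10 Spi1 libraries have one 61 to 62 kb from the Runx3 start. The Cbfb marks at 41.4 to 42.2 kb come from WT-iMOS libraries alone, of both factors. Bcl11a was not profiled in KO-iMOS.

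Across the 4 genes the region counts per comparison were set against those of all regions. Of 22 regions tested between KO-iMOS and WT-iMOS, 7 were higher and 3 lower in KO-iMOS by at least 0.5 in share of libraries. Over all 19539 regions tested the shares were 42.7% and 10.3%, so 7 of 22 (31.8%) and 3 of 22 (13.6%) lay on both sides of the background. No region was called, at the 4 genes or elsewhere (0%, Fisher's exact test after Benjamini-Hochberg adjustment, with 3766 regions at an unadjusted p under 0.05, of which 3 at the 4 genes). Of 20 regions tested between Bcl11a and Spi1 in WT-iMOS, 10 were lower for Bcl11a and 2 higher by at least 0.5, with 29.7% and 4.52% over all regions. None of the 20 was called, against 4.69% of all regions. None of the 4 genes was called in that comparison either, against 5.12% of genes. These 2 comparisons share the Spi1 WT-iMOS libraries. In WT-iMOS 11 of the 34 regions were called for both factors at least once. The share of such regions over all regions was not computed, so this count has no background.

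**Figure D4:**
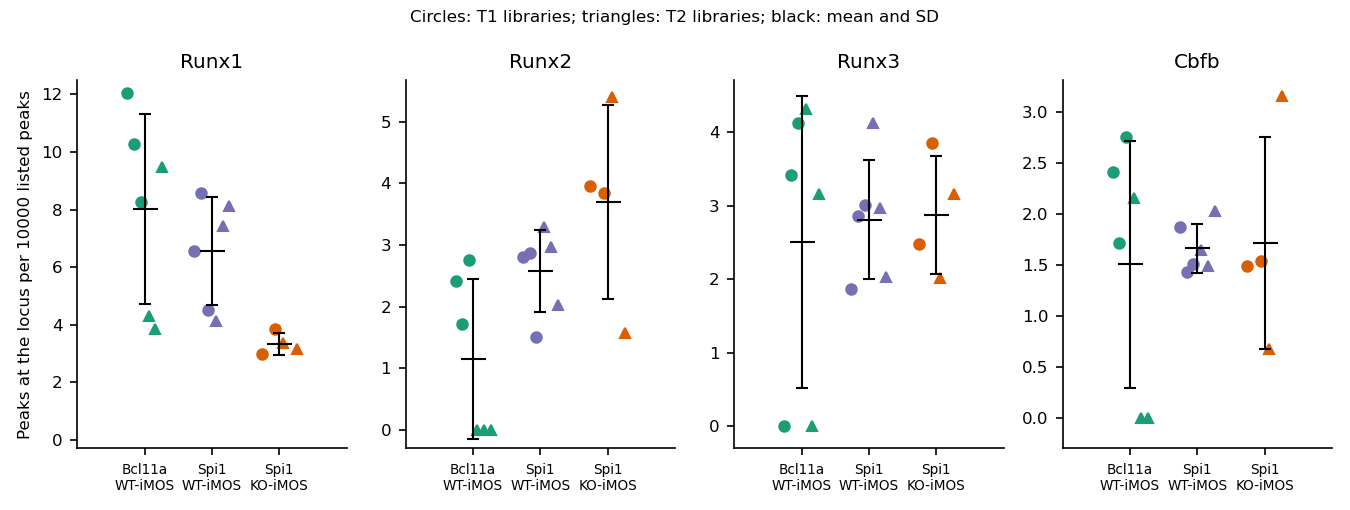
Peaks at each locus per 10000 listed peaks, for each library (circles T1, triangles T2), with mean and SD in black, by factor and genotype. The 4 Spi1 KO-iMOS libraries lie at 2.97 to 3.85 at Runx1, below the Spi1 WT-iMOS libraries at 4.12 to 8.59; at the other genes the groups overlap.

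The comparison of T2 with T1, with labels permuted within each factor and genotype, called no gene and no region (0% of 12631 genes and 0% of 21649 regions, with 737 genes and 249 regions at an unadjusted p under 0.05). At Runx1 the Bcl11a libraries had 12.05, 10.3 and 8.25 peaks per 10000 in T1 and 4.32, 3.84 and 9.47 in T2, which overlap. The T2 minus T1 difference was −4.31 for Bcl11a, 0.0095 for Spi1 in WT-iMOS and −0.147 for Spi1 in KO-iMOS, and −1.48 as their mean (stratified exact permutation p = 0.168, adjusted 0.840). At the 4 genes 1 region was lower in T2 by at least 0.5 and none was higher, of 26 tested (2.95% and 0.249% of all regions). It was the Runx1 P2 promoter, with a peak in 6 of 8 T1 libraries (3 Bcl11a, 1 Spi1 WT-iMOS and 2 Spi1 KO-iMOS) and 1 of 8 T2 libraries, that one from KO-iMOS (stratified exact permutation p = 0.025, adjusted 1). With a −log10 q of at least 5, P2 kept a peak in 2 Bcl11a and 1 Spi1 KO-iMOS libraries, and with lists of equal length in 1 Bcl11a library. The P1 promoter had 5 of 8 and 4 of 8 in the full lists. Mean differences at the other genes were −0.78 at Runx2 (permutation p = 0.275), −0.046 at Runx3 (p = 0.958) and −0.35 at Cbfb (p = 0.517).

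**Figure D5:**
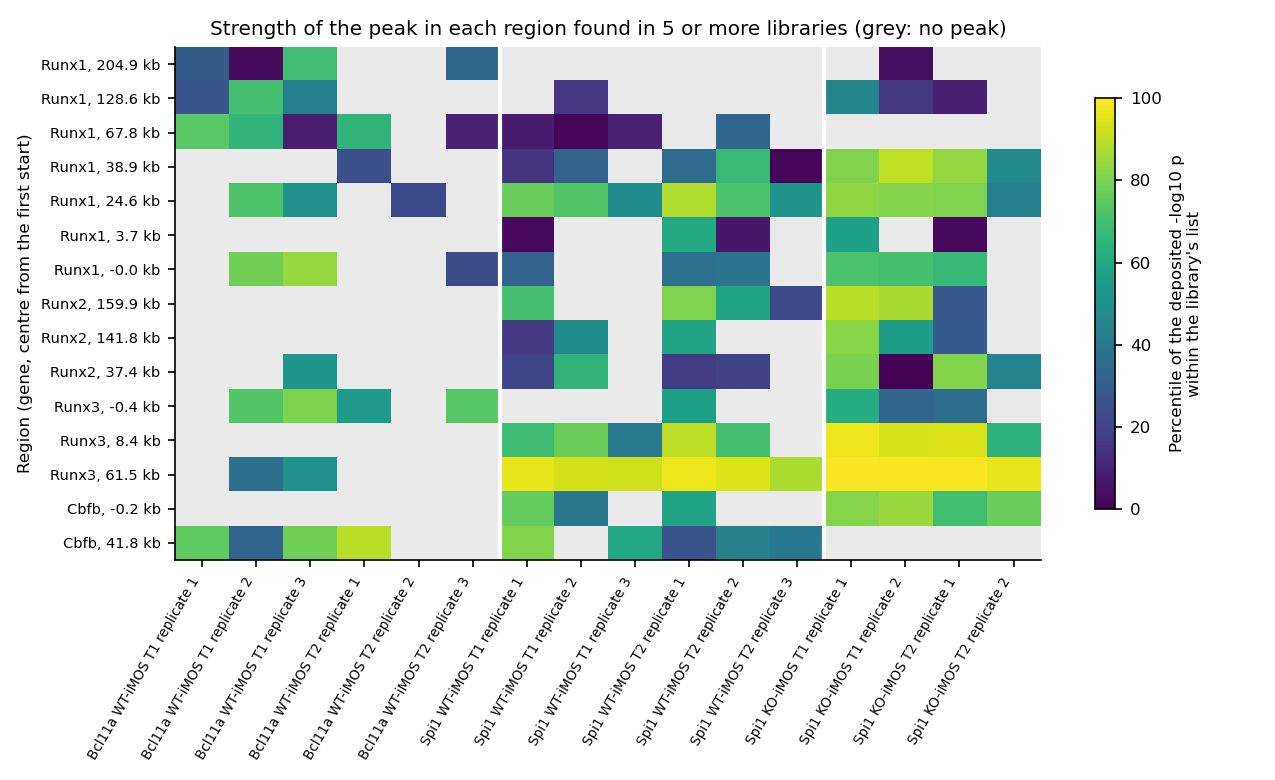
Percentile of the deposited −log10 p within its own list (colour) for the strongest peak of each library (columns) in the 15 regions found in 5 or more libraries (rows, named by gene and centre in kb from the first start); grey means no peak. The Runx3 region centred at 61.5 kb is at the 87.6 percentile or above in all 10 Spi1 libraries, and the Cbfb region at 41.8 kb is grey in all 4 KO-iMOS libraries.

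Genes that work with RUNX proteins were examined from 3 lists. Of 28 partners and cofactors, 13 had a Spi1 peak in at least 2 WT-iMOS libraries, 25 in at least 2 KO-iMOS libraries, and 11 had Bcl11a in at least 2. Of all 21883 genes, 33.5%, 49.8% and 25.4% did. Only Runx1t1, the ETO corepressor gene known from leukaemia fusions with Runx1, had no peak at all. Both factors were called in all 6 WT-iMOS libraries at Cbfa2t3 (a paralog of Runx1t1), and Spi1 in 4 of 4 KO-iMOS libraries. Lyl1 had Bcl11a in 4, Spi1 in 6 and KO-iMOS in 4 libraries, and Erg 4, 5 and 3; both encode stem cell transcription factors. For 11 of the 28 the share of libraries with Spi1 was higher by at least 0.5 in KO-iMOS and for 0 lower, with 40.8% and 3.85% of all 12052 genes tested, so this share is near the background. The largest were Myb (4 of 4 against 1 of 6), and Cbfa2t2, Crebbp, Ep300 and Kmt2a (3 of 4 against 0 of 6 each). Crebbp and Ep300 encode histone acetyltransferases and Kmt2a a histone methyltransferase. None was called.

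Of 19 blood genes known as RUNX targets, 13 had Spi1 in at least 2 WT-iMOS libraries and 9 had Bcl11a, against 33.5% and 25.4% of all genes. Csf1r (the receptor of macrophage colony-stimulating factor) and the Spi1 gene itself had both factors in all 6 libraries and Spi1 in 4 of 4 KO-iMOS libraries. Zbtb7b, a T helper lineage factor, had Bcl11a in 5, Spi1 in 4 and KO-iMOS in 3 libraries, and Rag1, the recombinase, 5, 3 and 1. Il3 and Cd4 had no peak. For 5 of the 19 the share was higher by at least 0.5 in KO-iMOS and for 1 lower, against 40.8% and 3.85% of genes tested. Those higher included Elane (4 of 4 against 2 of 6), Csf2 (3 of 4 against 1 of 6) and Itga2b (3 of 4 against 1 of 6, with Bcl11a in 5 of 6). Among 9 bone and cartilage genes known as Runx2 targets, 6 had no peak in any library, as did 33.4% of all genes. Sp7, a bone factor, had Bcl11a in 2 libraries, Bglap had 1 KO-iMOS library, and Spp1 (osteopontin, also made by macrophages) had Spi1 in all 4 libraries of KO-iMOS and in 1 of 6 of WT-iMOS. None of the tested genes of either list was called in any comparison.

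Over the 16 libraries, the 4 members did not vary together: Pearson's r of peaks per 10000 ran from −0.199 (Runx1 and Runx2) to 0.286 (Runx3 and Cbfb). The genes most like Runx1, among 5444 with a peak in at least 8 libraries, were Bcl2l1 (r = 0.8996), Mid1 (0.843) and Dtl (0.837). For Runx2 they were Pfkfb4 and Plekhm1 (0.871 each) and Trim39 (0.820), for Runx3 Tcn2 (0.754), Fam234a and Luc7l (0.721 each), and for Cbfb Pa2g4 (0.848), Abhd14a and Abhd14b (0.811 each). The median r over all candidates was 0.033 for Runx1, 0.173 for Runx2, 0.075 for Runx3 and 0.1205 for Cbfb. The 16 points share their libraries and list lengths and fall into 3 classes of factor and genotype, so these values only describe likeness.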

How the data were processed

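The members, gene lists and tests were chosen with earlier results of these data known. CUT&Tag for Bcl11a or Spi1 was done on sorted MPP3 cells with a kit from Vazyme, per the labels. The authors deposited 1 narrowPeak list per library, so calling was done separately in each. The submitters' processing notes name Bowtie2, SAMtools, MACS2 and mm10 with no version. Whether a control entered the calling is not stated in these sources. A deposited line gives a score, a fold enrichment (a ratio over local background), the −log10 p-value and the −log10 q-value. These are the authors' values, and they served to rank or filter peaks inside a list and to describe them. Every deposited −log10 q was at least 2.

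From these, peaks sharing at least 1 bp were merged over the 16 libraries, and regions or genes with a peak in at least 2 compared libraries were tested. Peaks per gene were scaled to 10000 listed peaks on assembled chromosomes and compared by two-sided exact permutation. Presence per region was compared by Fisher's exact test, and for T2 against T1 by a permutation within factor and genotype (2400 relabellings). Benjamini-Hochberg adjustment covered all genes or regions, with a threshold of 0.05. Gene spans came from a RefSeq table on GRCm38.p6 and starts from its promoter table. The region of the +23 enhancer was the one overlapping 21 to 25 kb from the P1 start. List genes named were the 4 with most WT-iMOS libraries and up to 4 with the largest genotype difference of at least 0.5, of which some are not reported here; Kmt2a, tied with the fourth, was added after its values were seen. Same-numbered replicates were checked for pairing: their deviations from group means correlated at 0.039 to 0.154 (KO-iMOS with WT-iMOS) and −0.132 to 0.044 (Bcl11a with Spi1). The library of the same number was the best match for 3 of 4 KO-iMOS and 2 of 6 Bcl11a libraries. With 2 KO-iMOS libraries per T their deviations mirror each other, so the check is weak there. The numbers were not taken as pairs, and a replicate block was run as an alternative. No 2 lists shared more than 60 identical intervals. Tests were tested on simulated data. Software was Python 3.11.15 with pandas 2.3.3, scipy 1.17.1, matplotlib 3.10.9 and numpy 2.4.6. Alternatives tried were other flanks, a stricter q, lists of equal length, other scalings and mergers, each T alone, a replicate block, and leaving out libraries.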

Additional observations from a re-analysis of the deposited data

Results flagged for a closer look

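Of 14 sets of 4 or more libraries examined for a value far from the others (peaks per 10000 at each of the 4 genes by factor and genotype, and the summit position in the Runx1 region near 24 kb for Spi1 by genotype), 1 stood out by Dixon's criterion, which by chance marks about 1 set in 20. It was the summit of the strongest Spi1 WT-iMOS T1 replicate 3 peak at Runx1, at 24420 bp from the P1 start. The strongest-peak summits of the other 5 WT-iMOS libraries stood at 24967 to 24971 bp. Without that library the mean shift between genotypes was −786 bp (exact permutation p = 0.00794, the smallest possible).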

How the results depend on the processing

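None of the 4 genes passed the adjusted threshold in any comparison under any setting run, and the genotype and T comparisons called 0 genes and 0 regions under every setting. The lower Spi1 value at Runx1 in KO-iMOS kept its direction throughout, with adjusted permutation p from 0.147 to 0.999. The 472 genes called between Bcl11a and Spi1 (100 higher for Bcl11a, 372 lower) became 312 with the gene body alone, 788 with 50 kb on either side, 830 (190 and 640) by covered base pairs, and 0 by number of peaks with no scaling or with a replicate block. Leaving out 1 library gave 0 to 572 such genes; the 0 came without Spi1 WT-iMOS T1 replicate 1 or 2 or T2 replicate 1 or 2. With the replicate block the genotype difference at Runx1 was −3.33 per 10000 (paired permutation p = 0.125). Between genotypes the 4 pairs of the block allow too few relabellings for any call. The same holds for 2 libraries against 3 within each T, so 0 calls there were fixed in advance. Between Bcl11a and Spi1 the 6 pairs of the block also allow few relabellings. A call there would need most genes at the smallest possible p, so the 0 calls with the block decide nothing. Merged regions in at least 2 libraries became 12 at Runx3 with 50 kb flanks, and 5 at Runx1, 1 at Runx2 and 3 at Runx3 with lists of equal length. Several differences changed sign, and the cause was not tested. For Spi1 KO-iMOS minus WT-iMOS at Runx3 they were −0.76 (50 kb), −0.35 (stricter q), −0.45 (T2 alone), −0.079 (replicate block), −0.22 (without both KO-iMOS T1 libraries) and −0.26 to 0.35 leaving out 1 library. At Cbfb they were −0.61 (gene body), −0.19 (stricter q), −29.7 bp per Mb (covered base pairs), −0.088 (T1 alone), −0.15 (without both KO-iMOS T2 libraries) and −0.43 to 0.40 leaving out 1. For Bcl11a minus Spi1 they were −1.17 peaks at Runx1 (no scaling, against 1.48 per 10000), 4.48 (50 kb), 0.063 (stricter q) and −0.67 to 0.19 leaving out 1 at Runx3, and 0.64 (equal length), 31.0 bp per Mb (covered base pairs) and −0.41 to 0.14 leaving out 1 at Cbfb. For T2 minus T1 they were 2.03 (50 kb), 0.17 (stricter q), 0.85 (equal length), 11.2 bp per Mb (covered base pairs) and −0.47 to 0.37 leaving out 1 at Runx3, and 0.038 (gene body), 0.10 (stricter q) and −0.76 to 0.064 leaving out 1 at Cbfb. Shares of libraries changed sign at the Runx2 region at 37 kb (−0.17, equal length), the Cbfb region at 42 kb between factors (0.33, equal length), the Runx1 P1 promoter (−0.17, T2 alone) and the Runx2 region at 160 kb (−0.50 in T2 alone, −0.17 without both KO-iMOS T1 libraries, −0.050 without Spi1 WT-iMOS T1 replicate 2 or 3). Depth is unknown, so an uncalled peak may be a missed one, and 2 to 6 libraries per group leave small differences undetectable. Leaving out both KO-iMOS T1 or both T2 libraries was chosen after seeing the data.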
